A study of Homo sapiens with 8 samples.

Results

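The genes encoded by mitochondrial DNA were all genes whose symbol starts with MT- in the deposited tables, 37 of 60558 genes in each table. They comprised 13 protein-coding genes, 2 ribosomal RNA (rRNA) genes and 22 transfer RNA (tRNA) genes, and lay on chrM, the mitochondrial chromosome of 16569 bases in hg38. All 37 were above 0 in all 8 libraries and passed the filter of at least 1 FPKM in at least 2 libraries. FPKM counts fragments per kilobase of a gene, scaled to the aligned sequence of the library, so levels of different genes are compared per length.

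The libraries were poly-A selected RNA-seq of 2D hIECs, human intestinal epithelial cells grown as a flat layer and derived from the H9 embryonic stem cell line, with 2 libraries in each of 4 groups. Normal hIECs received neither agent. Normal hIECs with PM10 received 100 μg/ml of PM10, coarse airborne dust sold as a reference material, for 7 days. Inflamed hIECs received the cytokines IFNγ and TNFα, each at 50 ng/ml, for 10 days. Inflamed hIECs with PM10 received the cytokines for 10 days and 100 μg/ml of PM10 for the last 7 of them. These times follow the study's methods, whereas the sample labels give 10 days of treatment for every sample. All groups share the single line H9, and no source used here says whether the 2 libraries of a group came from separate cultures, so p-values measure the spread between these libraries, which may be technical.

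The libraries held between 4.38 and 6.11 gigabases of aligned sequence if the lowest FPKM above 0 in each stands for a coverage of 1, which was not checked. Of 19 epithelial markers, 11 were listed at 0 in all 8 libraries, among them CDX2 and VIL1, whereas KRT8 (185 to 383 FPKM) and KRT18 (100.1 to 266 FPKM) were present. All 12 mesenchymal markers were above 0 in all libraries, with VIM between 718 and 973 FPKM. EPCAM, a general epithelial marker, was at or below 0.622 FPKM. A listed 0 does not show absence, since these tables hold no counts.

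Mitochondrial DNA encodes core subunits of respiratory complexes I, III and IV and of ATP synthase, together with the rRNAs and tRNAs that translate them. Both strands are transcribed as long precursors. tRNA genes lie between most of the other genes, and nucleases that cut at the ends of each tRNA release the rRNAs and mRNAs, most of which then receive a short poly-A tail. Mature mitochondrial tRNAs carry no poly-A tail. In the intestinal epithelium, mitochondrial ATP supports nutrient transport and renewal of the cell layer.

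The sequences of 5 tRNA genes are shown because the largest PM10 differences in inflamed hIECs fell on them. They lie between MT-CO3 and MT-ND5, on the plus strand. MT-TG and MT-TR frame MT-ND3, and MT-TH, MT-TS2 and MT-TL2 follow MT-ND4 in a row. Capitals mark the anticodon, and all sequences are from hg38, 5′ to 3′.
MT-TG, tRNA for glycine, chrM:9991-10058, plus strand: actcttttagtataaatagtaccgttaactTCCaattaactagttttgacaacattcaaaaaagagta
MT-TR, tRNA for arginine, chrM:10405-10469, plus strand: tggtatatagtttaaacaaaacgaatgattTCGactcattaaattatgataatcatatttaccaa
MT-TH, tRNA for histidine, chrM:12138-12206, plus strand: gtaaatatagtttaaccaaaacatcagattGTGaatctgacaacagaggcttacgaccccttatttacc
MT-TS2, tRNA for serine, chrM:12207-12265, plus strand: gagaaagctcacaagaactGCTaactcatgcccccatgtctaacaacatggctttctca
MT-TL2, tRNA for leucine, chrM:12266-12336, plus strand: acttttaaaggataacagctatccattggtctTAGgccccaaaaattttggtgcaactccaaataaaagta

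For contrast, MT-TC and MT-TY, the tRNA genes with the highest levels, lie on the minus strand and share 1 base.
MT-TC, tRNA for cysteine, chrM:5761-5826, minus strand: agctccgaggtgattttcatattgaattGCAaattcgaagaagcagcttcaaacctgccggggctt
MT-TY, tRNA for tyrosine, chrM:5826-5891, minus strand: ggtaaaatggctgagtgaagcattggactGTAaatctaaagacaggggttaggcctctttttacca

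In 6 of the 13 protein-coding genes the reading frame ends within a stop codon, which the poly-A tail completes in the RNA. The last 18 bases of MT-CO3, MT-ND3 and MT-ND4 are shown because the tRNA genes above begin at the next base. Capitals mark the unfinished stop codon.
MT-CO3, chrM:9973-9990, plus strand: tctattgatgagggtctT
MT-ND3, chrM:10387-10404, plus strand: gattagactgaaccgaaT
MT-ND4, chrM:12120-12137, plus strand: ttaccgggttttcctctT

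MT-ATP8 and MT-ATP6 share 46 bases in different reading frames, so reads over them cannot be assigned to one gene. In the shared stretch, capitals mark the first codon of MT-ATP6 and the last codon of MT-ATP8.
MT-ATP8 and MT-ATP6, chrM:8527-8572, plus strand: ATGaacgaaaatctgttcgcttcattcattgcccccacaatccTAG

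The members were among the most abundant genes of these cells. By the mean over 8 libraries, 14 of the 20 highest genes were members, and MT-CO1, the catalytic subunit of complex IV, was the highest gene in the tables (8328 to 16064 FPKM). MT-CO3 (6655 to 13220 FPKM), MT-CO2 (7000.2 to 10277 FPKM) and MT-ATP6 (6407 to 11534 FPKM) followed. The lowest protein-coding member was MT-ND4L, with 1577 to 3187 FPKM. The rRNAs were below most mRNAs in these poly-A selected libraries, at 1428 to 3885 FPKM for MT-RNR2 and 339 to 867 FPKM for MT-RNR1. The tRNA genes spanned from 3.45 FPKM for MT-TW to 2150 FPKM for MT-TC. The ranges of MT-CO3 and MT-CO2, and of MT-ND1 and MT-ND2, overlap widely, so their order does not stand out from the spread between libraries.

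**Figure D1:**
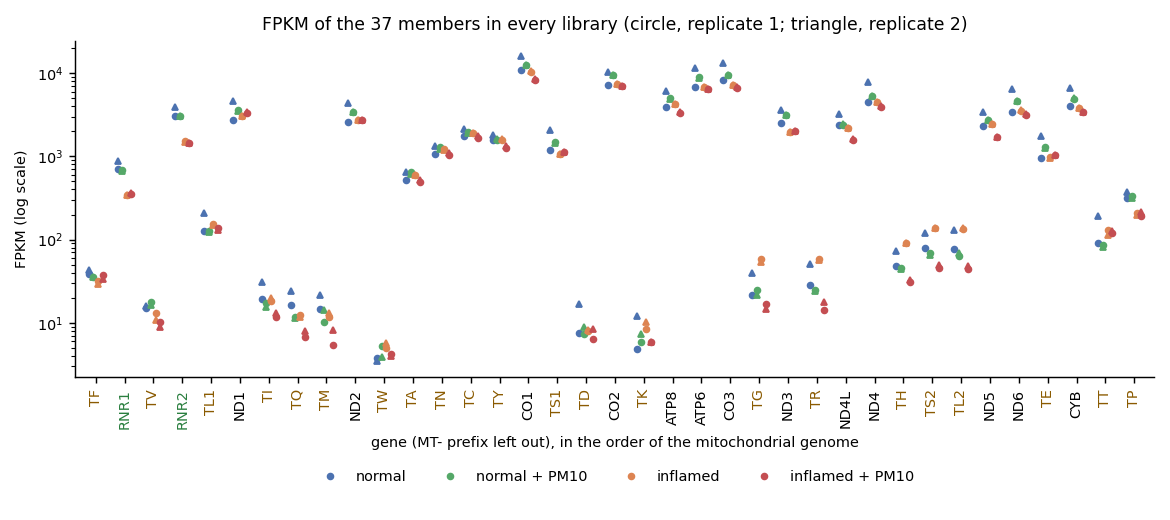
FPKM (log axis) of the 37 members in the order of the mitochondrial genome, with 1 point per library, circles for replicate 1 and triangles for replicate 2, coloured by group. The rRNAs drop in both inflamed groups, from 696 and 867 FPKM in normal hIECs to 340 and 339 FPKM in inflamed hIECs for MT-RNR1, and the tRNA genes between MT-CO3 and MT-ND5 are highest in inflamed hIECs and lowest in inflamed hIECs with PM10.

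As a share of the FPKM sum, the members took 17.02% and 24.2% in the normal libraries. The share was 20.4% and 20.2% with PM10, 16.94% and 16.95% in inflamed hIECs, and 15.5% and 15.7% in inflamed hIECs with PM10. The 4 libraries with cytokines were all below the 4 without, and the difference was -4.17 percentage points (16.3% ± 0.767 against 20.5% ± 2.93, SD, n = 4 per arm, p = 0.0556 by an exact two-sided permutation within PM10 strata, the smallest of 36 arrangements). Without the second normal library the difference was -2.37 percentage points, and without the first it was -5.96. PM10 made a difference of -0.810 percentage points over both strata (p = 0.722, exact two-sided permutation), which became 0.984 without the second normal library. Within the inflamed pair the groups did not overlap, with a difference of -1.32 percentage points, but 2 libraries against 2 cannot give an exact p below 0.333. As a share of aligned bases the members took 6.34% and 9.81% in the normal libraries, 7.58% and 7.51% with PM10, 5.94% and 5.98% in inflamed hIECs, and 5.22% and 5.27% in inflamed hIECs with PM10.

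**Figure D2:**
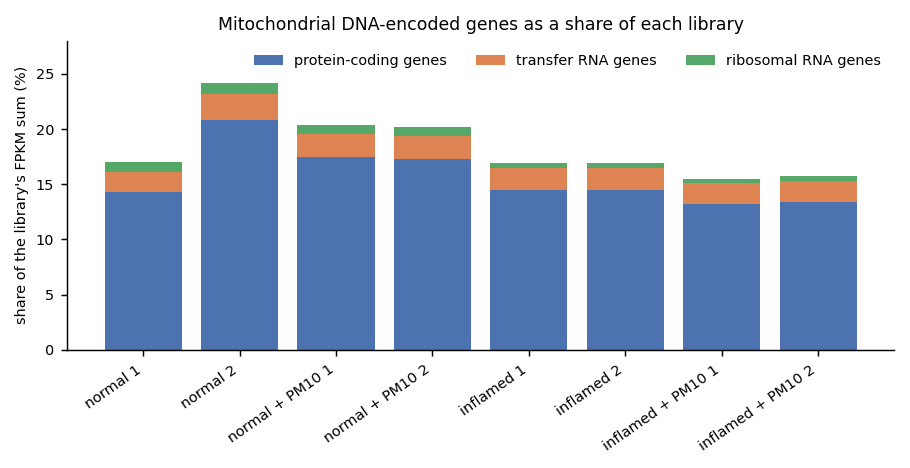
Share of each library's FPKM sum (%) taken by the protein-coding, tRNA and rRNA members, stacked, 1 bar per library. The normal libraries reach 17.02% and 24.2%, and all others lie from 15.5% to 20.4%.

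The normal libraries differed more from each other than the libraries of any other group did. The members' FPKM summed to 73259 in the first normal library and to 113310 in the second, whereas all other genes summed to 357236 and 355083. In the second library 36 of 37 members were higher, with a median ratio of 1.54 and a range from 0.910 for MT-TW to 2.49 for MT-TK. The median ratio was 0.942 over the 14003 other genes above 0 in both libraries. Between the libraries of the other groups the median ratio of the members was 0.984, 1.00 and 1.02. The gap was not the same for all members, with a median ratio of 1.58 for the protein-coding genes and 1.26 for the rRNAs.

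The second normal library also stood apart in nuclear RNAs that lack a poly-A tail. The summed FPKM of 8 such RNAs was 29.2 in the first normal library, 182 in the second and 9.93 to 19.5 in the other libraries. RN7SL1, the RNA of the signal recognition particle, was at 16.4 and 85.1 FPKM in the normal libraries and at 8.01 to 13.2 FPKM elsewhere, and RPPH1, the RNA of nuclear RNase P, was at 0.521 and 8.67 FPKM. Their part in the gap was not tested. Because of this gap, the medians of the members, and the differences of some of them, are also given without each normal library.

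**Figure D3:**
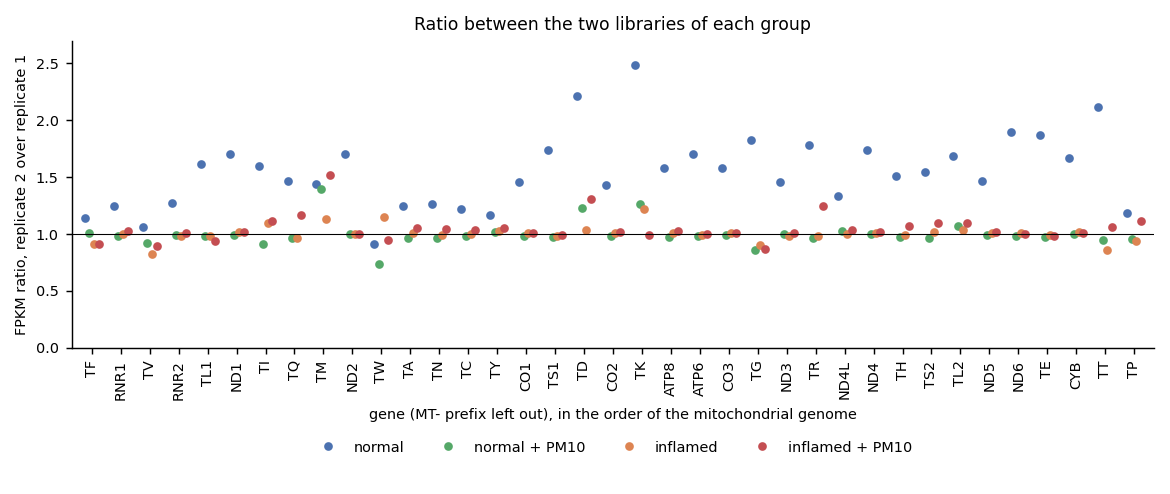
Ratio of FPKM between the libraries of each group (replicate 2 over replicate 1) for the 37 members in genome order, coloured by group, with a line at 1. In normal hIECs the ratios have a median of 1.54, and those of the other groups centre on 0.984, 1.00 and 1.02.

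Across the members, limma on log2(FPKM + 1) with all 8 libraries and an adjusted p under 0.05 gave the counts that follow, and each is set beside the share of all 14206 genes tested. In inflamed against normal hIECs, 9 of 37 members were lower and 4 were higher, where 30.3% of all genes were lower and 25.9% were higher. The median log2 difference was -0.33 for the members and -0.03 for all genes. With both agents against neither, 21 members were called, all lower, where 35.9% of all genes were lower and 30.4% higher (at an unadjusted p under 0.05, limma gave 22 lower and 0 higher members), with a median of -0.58 for the members and -0.04 for all genes.

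In inflamed hIECs with PM10 against inflamed hIECs, 8 members were called, all lower, where 9.02% of all genes were lower and 6.22% higher (at an unadjusted p under 0.05, limma gave 14 lower members and 1 higher). The medians were -0.18 and -0.01. In normal hIECs with PM10 against normal hIECs, only MT-TQ was called, and it was lower, where 3.72% of all genes were lower and 5.51% higher. For the interaction, the PM10 difference in inflamed hIECs minus that in normal hIECs, only MT-TH was called, with a negative value, where 4.48% of all genes had a negative call and 2.11% a positive one. Each library was also scaled to the sum of its own members, a setting added after seeing the data. On that scale 2 members were lower in inflamed than in normal hIECs, the rRNAs, and 6 were higher. Of all 14206 genes, 1083 were lower and 2901 higher.

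The spread of the normal libraries entered every one of these tests, since one estimate was shared by all groups. For inflamed against normal hIECs, the median log2 difference of the members was -0.603 without the first normal library and 0.0544 without the second. For all genes it was 0.00738 and -0.0607. The 13 members called with all libraries kept their direction without either normal library, and MT-TV and MT-TW lost their calls without the second. For normal hIECs with PM10 against normal hIECs, the member median was -0.405 without the first normal library and 0.166 without the second. All genes stood at 0.0962 and 0.0223. The sign of the member median there thus depended on which normal library was kept. With both agents against neither, the member median was -0.942 and -0.219 in the same order, and that of all genes -0.00198 and -0.0754. The interaction turned as well, with a member median of 0.221 without the first normal library and -0.432 without the second. For all genes it was -0.0963 and -0.028. For inflamed hIECs with PM10 against inflamed hIECs, which uses no normal library for its difference, leaving out a normal library changed only the spread. The member median stayed at -0.181 and that of all genes at -0.00609. A fit without a normal library takes out the widest gap between libraries of a group. More members were then called in every comparison, so a call kept or gained in such a fit is no support.

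The FPKM of both rRNAs was lower in the libraries with cytokines. In poly-A selected libraries, less rRNA cannot be told apart from less of it carrying a tail or being captured. MT-RNR1, the rRNA of the small mitochondrial ribosomal subunit, was at 696 and 867 FPKM in normal hIECs and at 683 and 669.7 FPKM with PM10. It was at 340 and 339 FPKM in inflamed hIECs, and at 357 and 366 FPKM in inflamed hIECs with PM10. All 4 libraries with cytokines were below all 4 without. The log2 difference of inflamed against normal hIECs was -1.19 ± 0.0917 (SE, adjusted p = 3.45e-05, limma), and it was -1.35 and -1.04 without the first and the second normal library.

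MT-RNR2, the rRNA of the large subunit, was at 3060 and 3885 FPKM in normal hIECs and at 3046 and 3012 FPKM with PM10. It was at 1527 and 1501 FPKM in inflamed hIECs, and at 1428 and 1440.0 FPKM in inflamed hIECs with PM10. The log2 difference of inflamed against normal hIECs was -1.19 ± 0.0991 (SE, adjusted p = 5.14e-05, limma), which is 2.29-fold lower by the group means. PM10 did not pass the test for either rRNA in normal or inflamed hIECs, with log2 differences between -0.20 and 0.09. The summed FPKM of the rRNAs was 6.10% and 4.88% of the protein-coding sum in normal hIECs, 4.92% and 4.90% with PM10, 3.10% and 3.03% in inflamed hIECs, and 3.33% and 3.34% in inflamed hIECs with PM10. MT-ND1, which lies downstream of MT-RNR2 beyond MT-TL1, was at 2722 and 4631 FPKM in normal hIECs and at 3021 and 3075 FPKM in inflamed hIECs, with overlapping groups. The ratio of MT-RNR2 to MT-ND1 was 1.12 and 0.839 in normal hIECs, 0.853 and 0.849 with PM10, 0.506 and 0.488 in inflamed hIECs and 0.433 and 0.428 in inflamed hIECs with PM10.

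The 13 mRNAs encode 7 subunits of complex I, 1 of complex III, 3 of complex IV and 2 of ATP synthase. In inflamed against normal hIECs 3 of them were called, all lower, where 30.3% of all genes were lower and 25.9% higher. At an unadjusted p under 0.05, limma gave 4 lower mRNAs and 0 higher. MT-ND3, a complex I subunit, was at 2495 and 3626 FPKM in normal hIECs, 3142 and 3156 FPKM with PM10, 1988 and 1962 FPKM in inflamed hIECs, and 1990.1 and 2008 FPKM in inflamed hIECs with PM10. Its log2 difference of inflamed against normal hIECs was -0.61 ± 0.147 (SE, adjusted p = 0.00974, limma), and it was -0.88 and -0.34 without the first and the second normal library. MT-CO3, a complex IV subunit, had a log2 difference of -0.55 (adjusted p = 0.0335, limma), or -0.88 and -0.21 without the first and the second normal library, and MT-ND4L of complex I one of -0.33 (adjusted p = 0.0458, limma). Both of these calls were lost in 6 of 8 fits that each left out 1 library, all but those without a normal library, and MT-ND4L stood at 0.04 when scaled to the sum of the members.

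Of the 10 mRNAs that were not called, 8, all but MT-CO1 and MT-CYB, had a log2 difference below 0 without the first normal library and above 0 without the second. MT-CO1 was at 10994 and 16064 FPKM in normal hIECs, 12656 and 12477 FPKM with PM10, 10355 and 10462 FPKM in inflamed hIECs, and 8328 and 8387 FPKM in inflamed hIECs with PM10. MT-CYB, the complex III subunit, was at 3989 and 6666 FPKM in normal hIECs and at 3801 and 3857 FPKM in inflamed hIECs. The inflamed libraries of both genes lay below the lower normal library by less than the gap between the normal libraries. When inflamed hIECs with PM10 were compared with normal hIECs, 8 of 13 mRNAs were lower, where 35.9% of all genes were lower. Their log2 differences ran from -0.54 for MT-ATP8 to -0.78 for MT-ND4L, with MT-CO1 at -0.67 (adjusted p = 0.00546, limma). The others called were MT-ND3, MT-ND4, MT-ND5, MT-CO3 and MT-CYB. MT-ND4 lost its call in each of the 6 fits that left out 1 library of a group other than normal. MT-ATP8, MT-CO3 and MT-CYB lost theirs without either library of inflamed hIECs with PM10. The fits without a normal library hold less of the members' spread, so calls kept there are no support.

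With PM10 in inflamed hIECs, 1 of 13 mRNAs passed the test, where 9.02% of all genes were lower and 6.22% higher. MT-ND4L was at 2201 and 2204 FPKM in inflamed hIECs and at 1577 and 1632 FPKM with PM10, a log2 difference of -0.46 ± 0.117 (SE, adjusted p = 0.0401, limma), a call lost in 6 of 8 fits that left out 1 library. MT-ND5, the complex I subunit encoded next to MT-TL2, was at 2442 and 2461 FPKM in inflamed hIECs and at 1694 and 1727 FPKM with PM10. Its log2 difference was -0.52 ± 0.150 (SE, adjusted p = 0.0584, limma), not past the threshold with all libraries. MT-ND4, which shares 7 bases with MT-ND4L and is read from the same mRNA, had a log2 difference of -0.18 (adjusted p = 0.601, limma). The ratio of MT-ND4L to MT-ND4 was 0.490 and 0.486 in inflamed hIECs and 0.399 and 0.406 with PM10, against 0.531 and 0.406 in normal hIECs and 0.444 and 0.454 in normal hIECs with PM10. The ratio of MT-ND5 to MT-ND4 was 0.543 and 0.542 in inflamed hIECs and 0.428 and 0.430 with PM10, against 0.511 and 0.430 in normal hIECs and 0.512 and 0.507 in normal hIECs with PM10, so the second normal library stood at the level of inflamed hIECs with PM10.

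MT-ND6, the only mRNA on the minus strand, was at 3373 and 6389 FPKM in normal hIECs, 4660 and 4587 FPKM with PM10, 3523 and 3564 FPKM in inflamed hIECs, and 3179 and 3188 FPKM in inflamed hIECs with PM10. It passed the test in no comparison. The libraries were not strand-specific, so reads from the opposite strand of the same stretch cannot be told apart from those of MT-ND6, nor can those of any other member.

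**Figure D4:**
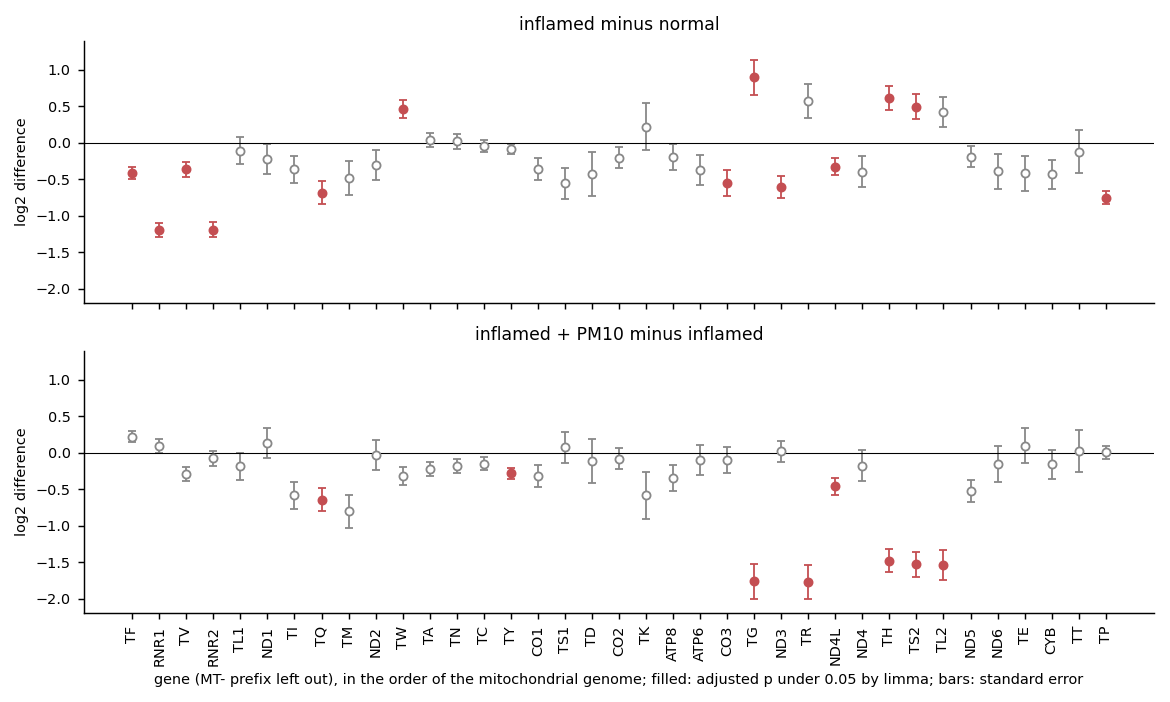
Log2 differences (limma on log2(FPKM + 1), bars are SE) of the 37 members in genome order, inflamed against normal hIECs above and inflamed hIECs with PM10 against inflamed hIECs below, with filled points at an adjusted p under 0.05. The rRNAs stand at -1.19 in the upper panel, and MT-TG, MT-TR, MT-TH, MT-TS2 and MT-TL2 stand between -1.78 and -1.48 in the lower panel.

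The tRNA genes fell into separate levels by the strand of the gene, though reads from either strand cannot be told apart in these libraries. Of the 22, 8 lie on the minus strand, and 7 of these, all but MT-TQ, were above all 14 plus-strand tRNA genes in each of the 8 libraries. In the first normal library, for example, the lowest of the 7 was MT-TP at 313 FPKM and the highest plus-strand tRNA gene was MT-TL1 at 128 FPKM. In inflamed hIECs with PM10 the same genes stood at 192 and 137 FPKM in the first library. The median was 1006 FPKM for the 8 minus-strand genes and 25.2 FPKM for the 14 plus-strand genes in the first normal library. MT-TQ was at 6.82 to 24.2 FPKM. The tRNA genes are 59 to 75 bases long, shorter than the 100-base reads, so a read that covers one reaches into its neighbours or comes from a trimmed end, and the FPKM of a mature tRNA cannot be told apart from that of a precursor.

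Most minus-strand tRNA genes with high levels did not pass the test. MT-TC was at 1765 and 2150 FPKM in normal hIECs, 1954 and 1923 FPKM with PM10, 1889 and 1888 FPKM in inflamed hIECs, and 1671 and 1734 FPKM in inflamed hIECs with PM10. It passed the test in no comparison. MT-TA, MT-TN, MT-TS1 and MT-TE were likewise called in none of the 5 comparisons with all libraries. MT-TY was at 1580 and 1616 FPKM in inflamed hIECs and at 1277 and 1348 FPKM with PM10 (log2 difference -0.28, adjusted p = 0.0428, limma, lost in 6 of 8 fits that left out 1 library). MT-TP, for proline, was at 313 and 372 FPKM in normal hIECs and 332 and 318 FPKM with PM10, then at 209 and 196 FPKM in inflamed hIECs and 192 and 214 FPKM in inflamed hIECs with PM10. Its log2 difference of inflamed against normal hIECs was -0.75 ± 0.0901 (SE, adjusted p = 0.000319, limma), or -0.88 and -0.63 without the first and the second normal library, and the 4 libraries with cytokines lay below the 4 without.

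The tRNA genes that frame MT-RNR1 were lower in inflamed than in normal hIECs, as the members summed were. By group means MT-TF stood at 0.75 of normal and MT-TV at 0.77, where all members summed stood at 0.76 and MT-RNR1 at 0.43. MT-TF, for phenylalanine, was at 38.1 and 43.4 FPKM in normal hIECs and at 31.8 and 29.0 FPKM in inflamed hIECs, a log2 difference of -0.41 (adjusted p = 0.00364, limma). MT-TV, for valine, was at 15.1 and 16.1 FPKM in normal hIECs and at 13.1 and 10.8 FPKM in inflamed hIECs, a log2 difference of -0.36 (adjusted p = 0.0166, limma). The MT-TV call was lost without the second inflamed library (-0.23, adjusted p = 0.0956, limma), without the second normal library and under TPM scaling (adjusted p = 0.0652, limma). MT-TQ, for glutamine, fell in all 4 comparisons between groups. It was at 16.5 and 24.2 FPKM in normal hIECs, 11.8 and 11.4 FPKM with PM10, 12.3 and 11.9 FPKM in inflamed hIECs, and 6.82 and 7.97 FPKM in inflamed hIECs with PM10. The log2 difference was -0.74 for PM10 in normal hIECs (adjusted p = 0.0308, limma), -0.68 for inflamed against normal hIECs (adjusted p = 0.00744, limma) and -0.64 for PM10 in inflamed hIECs (adjusted p = 0.0338, limma). MT-TQ lies opposite MT-TI, with which it shares 3 bases, and the calls with PM10 were each lost in 6 of 8 fits that left out 1 library.

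The 5 tRNA genes between MT-CO3 and MT-ND5, whose sequences are given above, were singled out as a stretch after their values had been seen, and no test was made of the group. Their summed FPKM was 254 and 415 in normal hIECs, 227 and 224 with PM10, 477 and 477 in inflamed hIECs, and 151 and 163 in inflamed hIECs with PM10. The other 9 plus-strand tRNA genes summed to 322 and 543 FPKM in normal hIECs, 310.2 and 307 FPKM with PM10, 379 and 360 FPKM in inflamed hIECs, and 338 and 339 FPKM in inflamed hIECs with PM10. The 5 genes thus made up 42.2% to 44.1% of the plus-strand tRNA sum in normal hIECs with or without PM10, 55.7% and 57.0% in inflamed hIECs, and 30.8% and 32.5% in inflamed hIECs with PM10. The sum of the other 9 was mostly MT-TL1 and MT-TT and hides falls of lower genes. With PM10 in inflamed hIECs, the log2 difference was -0.80 for MT-TM (adjusted p = 0.0560, limma) and -0.59 for MT-TI and MT-TK. It was -0.32 for MT-TW, -0.29 for MT-TV, -0.18 for MT-TL1 and -0.11 for MT-TD. MT-TF (0.22) and MT-TT (0.03) went the other way. These genes did not pass the test.

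MT-TH was at 47.8 and 72.3 FPKM in normal hIECs and at 45.5 and 44.1 FPKM with PM10. It was at 91.1 and 90.3 FPKM in inflamed hIECs and at 30.8 and 33.0 FPKM in inflamed hIECs with PM10. The inflamed libraries were the highest and those of inflamed hIECs with PM10 the lowest, with no overlap. The log2 difference was 0.62 ± 0.161 for inflamed against normal hIECs (SE, adjusted p = 0.0136, limma) and -1.48 ± 0.161 for PM10 in inflamed hIECs (SE, adjusted p = 0.00186, limma), the latter 2.84-fold lower by the group means.

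MT-TS2 was at 78.4 and 121 FPKM in normal hIECs, 68.2 and 65.8 FPKM with PM10, 137 and 139 FPKM in inflamed hIECs, and 45.0 and 49.2 FPKM in inflamed hIECs with PM10. MT-TL2 was at 77.4 and 130.4 FPKM in normal hIECs, 63.7 and 68.4 FPKM with PM10, 133 and 138 FPKM in inflamed hIECs, and 43.8 and 48.0 FPKM in inflamed hIECs with PM10. These neighbours of MT-TH showed the same order of groups. With PM10 in inflamed hIECs, MT-TS2 was 2.92-fold lower (log2 difference -1.53, adjusted p = 0.00203, limma) and MT-TL2 2.95-fold lower (log2 difference -1.54, adjusted p = 0.00388, limma).

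MT-TG was at 21.9 and 40.0 FPKM in normal hIECs, 25.0 and 21.5 FPKM with PM10, 58.8 and 53.3 FPKM in inflamed hIECs, and 16.965 and 14.7 FPKM in inflamed hIECs with PM10. MT-TR was at 28.5 and 51.0 FPKM in normal hIECs, 24.8 and 23.9 FPKM with PM10, 57.9 and 56.8 FPKM in inflamed hIECs, and 14.4 and 17.9 FPKM in inflamed hIECs with PM10. For both, inflamed hIECs were highest and inflamed hIECs with PM10 lowest. With PM10 in inflamed hIECs, MT-TG was 3.55-fold lower (log2 difference -1.76, adjusted p = 0.00434, limma) and MT-TR 3.56-fold lower (log2 difference -1.78, adjusted p = 0.00361, limma).

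All 5 of these calls for PM10 in inflamed hIECs held in all 19 fits made, the alternatives included, with adjusted p-values of at most 0.0375 (limma). The mRNAs just upstream of MT-TG, MT-TR and MT-TH did not pass the test. MT-CO3 was at 7150 and 7234 FPKM in inflamed hIECs and at 6655 and 6723 FPKM with PM10, MT-ND3 was at 1988 and 1962 FPKM and then 1990.1 and 2008 FPKM, and MT-ND4 was at 4493 and 4539 FPKM and then 3957 and 4015 FPKM. The level of MT-TG as a fraction of that of MT-CO3 was 0.00823 and 0.00737 in inflamed hIECs, 0.00255 and 0.00218 when PM10 was added to them, 0.00262 and 0.00302 in normal hIECs, and 0.00265 and 0.00229 in normal hIECs with PM10. The inflamed libraries were the ones that stood apart in this ratio.

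For the cytokines alone, 3 of the 5 genes passed the test, all higher, where 25.9% of all genes were higher. MT-TG had a log2 difference of 0.90 (adjusted p = 0.0146, limma) and MT-TS2 one of 0.50 (adjusted p = 0.0393, limma), beside MT-TH above. MT-TR (0.57, adjusted p = 0.0675, limma) and MT-TL2 (0.42, adjusted p = 0.113, limma) did not pass. Without the second normal library the 5 log2 differences ran from 0.80 to 1.32, and without the first from 0.05 to 0.48. The MT-TS2 call was lost in each of the 6 fits without a library of the other 3 groups, the MT-TH call without either inflamed library, and the MT-TG call without the first inflamed library.

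The PM10 difference in inflamed hIECs was more negative than that in normal hIECs for MT-TH, with an interaction of -1.09 ± 0.228 (SE, adjusted p = 0.0358, limma). The interaction of the others in this stretch was -1.43 for MT-TG (adjusted p = 0.0515, limma), -1.15 for MT-TR (adjusted p = 0.0852, limma), -0.997 for MT-TS2 (adjusted p = 0.0547, limma) and -0.94 for MT-TL2 (adjusted p = 0.103, limma). Without the first normal library the 5 interactions ran from -1.01 to -0.57, and without the second from -1.85 to -1.31. The MT-TH call was lost in 6 of 8 fits that left out 1 library, all but those without a normal library.

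**Figure D5:**
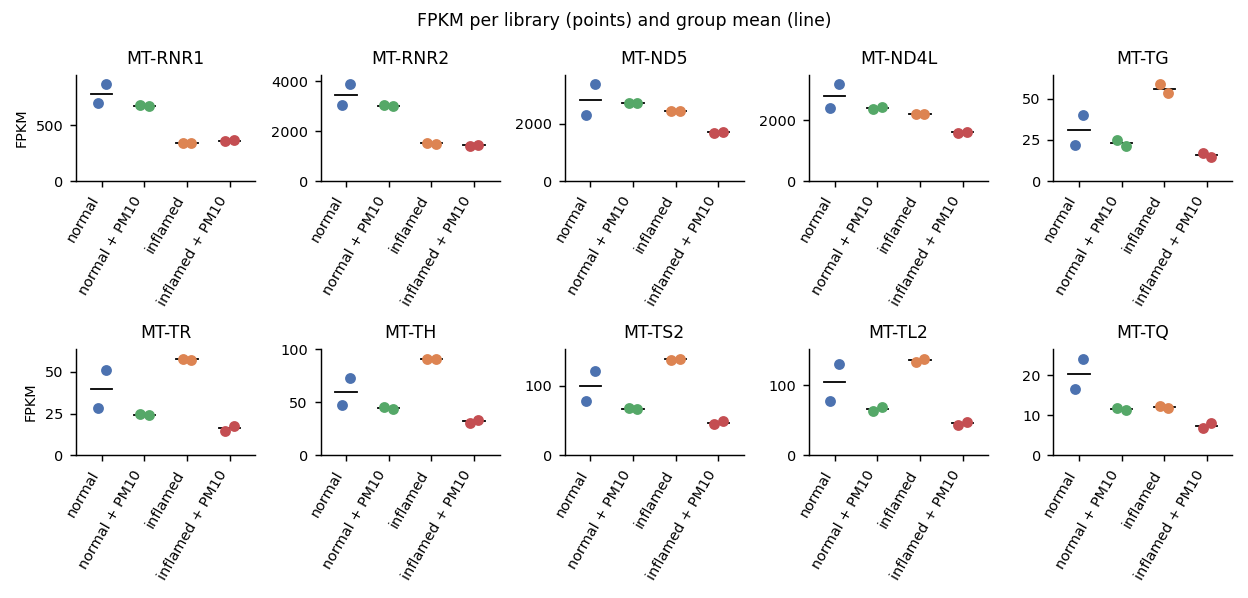
FPKM per library (points) and group mean (line) of the rRNAs, MT-ND5, MT-ND4L, the 5 tRNA genes between MT-CO3 and MT-ND5, and MT-TQ. MT-TG lies at 58.8 and 53.3 FPKM in inflamed hIECs and at 16.965 and 14.7 FPKM with PM10, and MT-RNR2 lies at 1527 and 1501 FPKM in inflamed hIECs and at 3060 and 3885 FPKM in normal hIECs.

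Of the remaining plus-strand tRNA genes, MT-TL1 (124 to 207 FPKM) and MT-TT (80.9 to 192 FPKM) were the highest and MT-TW the lowest. MT-TW, for tryptophan, was at 3.79 and 3.45 FPKM in normal hIECs and 5.01 and 5.77 FPKM in inflamed hIECs (log2 difference 0.47, adjusted p = 0.0143, limma, lost without the second normal or the second inflamed library). Against normal hIECs, the log2 difference of inflamed hIECs with PM10 was -1.28 for MT-TM and -0.95 for MT-TI, and both passed the test. MT-TM was at 14.8 and 21.3 FPKM in normal hIECs and at 5.44 and 8.24 FPKM in inflamed hIECs with PM10. MT-TL1, MT-TD, MT-TK and MT-TT passed the test in none of the 5 comparisons with all libraries. MT-TK ranged from 4.90 to 12.2 FPKM within the normal group alone.

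Sums of cell type markers also differed between libraries with and without cytokines. The epithelial marker sum was 615 to 668 FPKM in the 4 libraries without cytokines and 299 to 361 FPKM in the 4 with them. The mesenchymal sum was 4837 to 5458 FPKM without and 5628 to 6329 FPKM with cytokines, and the neuronal sum, with 3 of 9 markers at 0 throughout, was 201 to 228 FPKM without and 121 to 137 FPKM with them. Within the lists the members went both ways in inflamed against normal hIECs by limma, with 1 higher and 3 lower of 5 epithelial markers tested, 6 higher and 4 lower of 12 mesenchymal ones, and 1 higher and 4 lower of 6 neuronal ones. KRT8 (373 and 383 FPKM) and KRT18 (266 and 265 FPKM) made up most of the epithelial sum in normal hIECs, and COL3A1, a fibrillar collagen, went against the mesenchymal sum, from 1034 and 1014 FPKM in normal to 706 and 709 FPKM in inflamed hIECs. Their part in the results above was not tested. In bulk RNA, fewer cells of a type and less RNA per cell cannot be told apart, nor can fewer copies of mitochondrial DNA and less RNA per copy.

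Nuclear copies of mitochondrial genes share reads with the members. The tables hold 394 such copies by their symbols, of which 11 to 14 were above 0 in a library, and the 5 highest made up 97.9% to 98.2% of their summed FPKM. All 5 lie in 1 stretch of chromosome 1 on the plus strand. MTATP6P1 (chr1:633696-634376 in hg38) is 98.5% identical to MT-ATP6 over 681 bases by blastn. It was at 1243 and 2027 FPKM in normal hIECs, 1519 and 1501 FPKM with PM10, 1119 and 1154 FPKM in inflamed hIECs, and 1072 and 1099 FPKM in inflamed hIECs with PM10. This equals 16.3% to 18.4% of the MT-ATP6 level in the same library. MTCO1P12, 98.6% identical to MT-CO1, stood at 8.23% to 9.53% of MT-CO1, MTND2P28, 98.4% identical to MT-ND2, at 14.1% to 18.03% of MT-ND2, MTND1P23 at 2.96% to 3.66% of MT-ND1, and MTCO3P12 at 0.332% to 0.472% of MT-CO3. The copies were higher in the second normal library as well, and how the aligner split reads between copy and member was not tested. The levels of MT-ATP6, MT-CO1, MT-ND2, MT-ND1 and MT-CO3 are uncertain by an amount that these ratios of FPKM do not measure.

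Of 17 nuclear genes of mitochondrial transcription and replication, 3 rose and 5 fell in inflamed against normal hIECs, where 25.9% of all genes were higher and 30.3% lower. TFB1M, an rRNA methyltransferase of the small subunit, rose by 0.55 on the log2 scale (adjusted p = 0.0057, limma), MGME1, a nuclease of mitochondrial DNA, by 0.55, and RNASEH1 by 0.38. MTERF2 (-0.77), MTERF4 (-0.72), POLG, the replicative polymerase (-0.43), TOP1MT (-0.32) and POLRMT, the mitochondrial RNA polymerase (-0.27, adjusted p = 0.0063, limma), fell. Scaled to the FPKM sum (TPM), the calls of POLRMT (-0.18, adjusted p = 0.108, limma) and TOP1MT (-0.22, adjusted p = 0.103, limma) were lost, and scaled to the sum of the members POLRMT stood at 0.04. The median was 0.08, against -0.03 for all genes. Without the first normal library 4 of the 17 rose and 2 fell, and without the second 3 rose and 5 fell. The MTERF4 call was lost without either normal or the second inflamed library, and the POLG and TOP1MT calls without the first normal or the first inflamed library.

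Of the genes of mitochondrial RNA processing, stability and decay, 27 of 28 passed the filter, and 5 rose and 1 fell in inflamed against normal hIECs, with a median of 0.00416, beside the same 25.9% and 30.3% of all genes. PNPT1, the polynucleotide phosphorylase of the mitochondrial RNA degradosome, rose by 0.49 (adjusted p = 0.00118, limma), FASTKD2 by 0.42, PRORP, the catalytic subunit of mitochondrial RNase P, by 0.27, PDE12, which removes poly-A tails, by 0.23, and ELAC2, the RNase Z that cuts the 3′ end of tRNAs, by 0.17, while FASTK fell by 0.52 on the log2 scale. Without the first normal library 7 rose and 1 fell, and without the second 2 rose and 4 fell. FASTKD2 lost its call without the second normal or the second inflamed library, and PRORP without the second inflamed one. The PDE12 and ELAC2 calls were each lost in 7 of 8 fits that left out 1 library. With PM10 in inflamed hIECs, PRORP rose by 0.26 on the log2 scale (adjusted p = 0.0416, limma) and no other gene of this list or of the transcription and replication list passed limma's test, where 3 and 3 had an unadjusted p under 0.05. Of 9 regulators of mitochondrial biogenesis that passed the filter, 1 was higher and 2 were lower in inflamed than in normal hIECs.

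Nuclear subunits of the same complexes fell more often than they rose in inflamed against normal hIECs, with 19 of 37 lower and 3 higher for complex I, 4 of 9 lower for complex III, 9 of 13 lower for complex IV and 8 of 18 lower for ATP synthase. The largest falls of complex I were NDUFA3 (-0.68), NDUFA11 (-0.56) and NDUFB4 (-0.47), and NDUFB5 (0.44), NDUFB3 (0.28) and NDUFS1 (0.25) rose. With PM10 in inflamed hIECs, 3 of 37, 0 of 9, 3 of 13 and 3 of 18 were lower. These counts stand beside 30.3% and 9.02% of all genes. Scaled to the FPKM sum (TPM), 3167 of all 14206 genes were lower and 4083 higher in inflamed than in normal hIECs by limma. There 9, 0, 3 and 1 of the subunits of complexes I, III, IV and ATP synthase were lower, in the same order. The falls of the subunits thus depended on the scaling. The counts lower were 17, 3, 8 and 9 without the first normal library and 21, 5, 6 and 10 without the second.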

How the data were processed

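Gene tables of 8 RNA-seq libraries were used, 2 in each of 4 groups taken from the sample labels. Total RNA with a RIN above 7.5 was poly-A selected and sequenced in paired ends of 100 bases without strand information. The authors trimmed reads with Cutadapt 3.7 and Sickle 1.33 (Phred 20, reads under 50 bases dropped) after NGSQCToolkit 2.3.3, aligned them with HISAT2 2.2.1 to hg38 and deposited FPKM values from StringTie 2.2.0, with no counts. The annotation release was not given in the sources used here, and 99.5% of gene IDs matched GENCODE 44.

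The 14206 genes that reached 1 FPKM in 2 or more libraries were fitted as log2(FPKM + 1) over all 8 libraries with limma 3.58.1 (R 4.3.3, trended prior), with Benjamini-Hochberg adjustment within each of 5 comparisons and a threshold of 0.05. A log2 difference on this scale understates the change of low genes. Shares were compared by exact permutation with numpy 2.4.6. On simulated data for inflamed against normal hIECs (14206 genes), 191 of 200 genes with a log2 change of 1 were recovered and 2.05% of calls were false. The changed genes had a mean log2(FPKM + 1) above 3, and noise was drawn for each gene independently. The simulation therefore held no shift shared by many members, as between the normal libraries, and gives no error rate for such shifts. Sequences were read from the hg38 genome, and nuclear copies were aligned with blastn 2.17.0. All 37 members could be named. Nuclear genes were named by the size of the log2 difference among those called, up to 5 (3 for PM10 in inflamed hIECs and for subunits) per list and direction, and nuclear copies by the highest mean FPKM. The members and gene lists were chosen with earlier results of these data known. Alternatives were other scalings, quantile normalization, another pseudocount (0.1), no filter, no trend, only the groups compared, a replicate block and each library left out.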

Additional observations from a re-analysis of the deposited data

Results flagged for a closer look

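MT-TH, the tRNA gene for histidine, had a PM10 difference that was not the same in inflamed and normal hIECs, with a log2 difference of differences of -1.09 (adjusted p = 0.0358, limma). Among members without a called interaction, 4 had PM10 differences of opposite sign in normal and inflamed hIECs with no overlap of libraries in either, which is 10.8% of the members and 11.6% of all 14206 genes tested, so the count is near the background. Their log2 difference of differences was 0.41 for MT-TF (adjusted p = 0.0799, limma), 0.29 for MT-RNR1 (adjusted p = 0.231, limma), -0.42 for MT-TV (adjusted p = 0.131, limma) and -0.57 for MT-TW (adjusted p = 0.102, limma), so for these 4 the test of the difference was not passed.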

How the results depend on the processing

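FPKM alone fixes no read depth per gene, and 2 libraries per group limit every test. Over the 8 fits that each left out 1 library, the number of members called was 7 to 33 for inflamed against normal hIECs, 16 to 36 for inflamed hIECs with PM10 against normal, 5 to 27 for inflamed hIECs with PM10 against inflamed, 0 to 30 for normal hIECs with PM10 against normal and 0 to 24 for the interaction. The PM10 difference in share ranged from -2.60 to 0.984 percentage points, reversed without the second normal library, and the cytokine difference from -5.96 to -2.37.

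Scaled to the sum of the members, a setting added after seeing the data, 8 members were called in inflamed against normal hIECs. Of all 14206 genes, 2901 were higher and 1083 lower there. In inflamed hIECs with PM10 against normal, 7 were called, where 5346 genes were higher and 1519 lower. Against inflamed 5 were called, all lower, where 173 genes were higher and 167 lower. PM10 in normal hIECs and the interaction gave 0 calls of members. MT-ND4L (0.0388) and POLRMT (0.0436) in inflamed against normal hIECs and MT-TY (0.16) in inflamed hIECs with PM10 against normal changed sign. That scaling moved the median of all genes to 0.27, 0.39 and 0.13 in the first 3 comparisons. Scaled to the FPKM sum (TPM), 6 members were higher and 7 lower in inflamed against normal hIECs, and 56.3% of all calls were higher, against 46.1%.

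For inflamed hIECs with PM10 against inflamed, 5 members were called with no filter, all lower, where 1121 of 21400 genes were lower. With only the groups compared 19 were called, all lower, where 1131 of 14206 genes were lower. For normal hIECs with PM10 against normal, 0 were called with no filter and with only the groups compared. With quantile normalization 2 were called, both lower, where 633 of 14206 genes were lower. The interaction gave 0 calls with median centring, with no filter and without the trend. It gave 3 negative calls with quantile normalization and with TPM, where 487 and 318 of 14206 genes had one. Scaled without the members it gave 2, where 744 genes had one. The cause was not tested. In inflamed against normal hIECs the calls of MT-CO3, MT-ND4L and MT-TS2 were each lost under median centring, with no filter and with only the groups compared. Under quantile normalization MT-CO1 stood at 0 and MT-CO3 at -0.09 in inflamed hIECs with PM10 against normal. Quantile normalization gives the highest gene of each library the same value, so the 0 of MT-CO1 was fixed in advance. MT-CO3, also near the top, is held in nearly the same way, so neither value tests these falls. The MT-TH interaction missed the threshold under quantile normalization (adjusted p = 0.0568, limma). Of member results under settings other than leaving out a library, 373 kept direction and side of the threshold, 71 fell short of it, 3 newly passed and 2 reversed.

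With a replicate block, 2 members were called for PM10 in normal hIECs and 15 for inflamed against normal. In inflamed hIECs with PM10, 21 were called against normal and 9 against inflamed, and 1 for the interaction. Of all 14206 genes, 600, 3667, 4298, 803 and 244 were called higher and 451, 4290, 5091, 1163 and 518 lower, in the same order. The correlations of same-numbered deviations, -0.00151 to 0.0793, did not pair the samples.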
